A study of Mus musculus with 4 samples.

Results

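Heme is built from glycine and succinyl-CoA by a chain of enzymes that starts in the mitochondrion, passes through the cytosol and ends in the mitochondrion. The genes described here are 8 enzymes of that chain, Alas1, Alas2, Alad, Uros, Urod, Cpox, Ppox and Fech. They were chosen by their gene symbols, matched from the Ensembl identifiers of the expression table, and all 8 were found among its 23763 genes. In spleens of KLHL3 knock-in mice (KLHL3-KI), 7 of the 8 were higher than in wild-type spleens (WT). The rise was unequal along the pathway, with Cpox at 344.5 and 461.2 scaled read counts in KLHL3-KI libraries, against 74.96 and 58.95 in WT libraries, and Alas2 at 843.7 and 854.9, against 546.4 and 458.9. Alas1, the isozyme of the first step used by most tissues, was at 34.25 and 38.66 in KLHL3-KI libraries, against 29.98 and 30.00 in WT libraries, and did not pass the test.

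The data were total RNA profiles of spleen from C57BL/6J mice, all labelled as baseline, sequenced after ribosomal RNA depletion with a directional kit. KLHL3-KI mice carry a knock-in of Klhl3, the substrate adaptor of a ubiquitin ligase, and WT mice do not, and each group has 2 libraries. Which allele was knocked in, and the mice's age and sex, are not stated in the sources used here. Nothing in the labels says that the libraries come from separate animals, so p-values measure the spread between these libraries, which may be technical.

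The libraries held 9586677 and 10933023 whole reads in KLHL3-KI and 8535483 and 8975415 in WT. Values are read counts that the authors divided by 1 factor per library, called scaled read counts below. Across 16970 genes with a mean of at least 1, limma called 2583 genes higher (15.2% of genes tested) and 1283 lower (7.56%) in KLHL3-KI spleen at an adjusted p under 0.05. The median log2 fold change of all these genes was -0.01. With total reads made equal, 1916 were called higher and 3130 lower, after quantile normalization 2050 and 2372, and with globin, immunoglobulin and mitochondrial genes left out 2094 and 2968. Pairs of libraries had a Pearson correlation of log2 values, over genes that are not independent of each other, of 0.989 within either group and of 0.949 to 0.967 across the groups. Klhl3 itself was at 2.53 and 1.36 in KLHL3-KI libraries, against 3.02 and 4.67 in WT libraries, a difference of -0.72 on the log2 scale that did not pass (SE 0.27, limma adjusted p = 0.0895). A level of RNA does not check a knock-in allele.

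In the pathway, 5-aminolevulinate synthase joins glycine and succinyl-CoA in the mitochondrial matrix, and it is the rate-controlling step. ALAS1 serves most tissues and is held down by heme, while ALAS2 is the X-linked erythroid isozyme, whose translation is tied to iron. Red cell precursors make most of the body's heme for haemoglobin, and in mice the spleen red pulp both makes red cells and recycles the heme of old ones through macrophages.

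Sequences are shown for Alas2, with its iron-responsive element, and for Alas1, Uros and Cpox, which have the smallest and the 2 largest log2 fold changes of the members. An iron-responsive element is a hairpin in the RNA that iron regulatory proteins bind when iron is scarce. A pattern of C, 5 bases, the loop CAGTG plus 1 base, and 5 bases able to pair with the first 5 was searched on the transcribed strand in the first 150 bases of GENCODE M21 protein-coding transcripts. Of 21877 genes, 25 (0.114%) held the pattern, and of the 8 members only Alas2 did. The 29 bases of transcript Alas2-201 from base 84 to base 112 are shown with the 6-base loop in capitals.
Alas2 element: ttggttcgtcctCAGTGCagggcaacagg

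RefSeq promoter windows of GRCm38.p6 were searched over the 250 bases before each transcript start. The table held 10 such windows for 7 members, all but Fech. The first motif was GATAA, read by GATA factors such as the erythroid GATA1. The second was CACCC, read by factors such as the erythroid KLF1, and the third was TGANTCA, the core read by the factor NF-E2. Each was searched on both strands. GATAA stood in 3 of the 10 windows, 1 each of Alas2, Cpox and Uros, and in 22.6% of all 32851 windows of the same length. CACCC stood in 5 of the 10 windows, against 52.0% of all windows, and TGANTCA stood in none, against 6.75% of all windows. Both GATAA and CACCC were found in the Alas2 and Cpox windows, and in 10.1% of all windows. The sequences below run 5′ to 3′ along the gene's strand, and capitals mark the motifs. A GATAA match on the opposite strand reads TTATC here. A CACCC match on the opposite strand reads GGGTG here.
Alas2, chrX:150547167-150547416, plus strand: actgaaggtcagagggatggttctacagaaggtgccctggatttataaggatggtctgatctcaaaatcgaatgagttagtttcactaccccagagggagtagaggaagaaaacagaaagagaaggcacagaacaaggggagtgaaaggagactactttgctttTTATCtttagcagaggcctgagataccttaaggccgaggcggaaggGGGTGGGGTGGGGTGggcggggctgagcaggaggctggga
Cpox, chr16:58669958-58670207, plus strand: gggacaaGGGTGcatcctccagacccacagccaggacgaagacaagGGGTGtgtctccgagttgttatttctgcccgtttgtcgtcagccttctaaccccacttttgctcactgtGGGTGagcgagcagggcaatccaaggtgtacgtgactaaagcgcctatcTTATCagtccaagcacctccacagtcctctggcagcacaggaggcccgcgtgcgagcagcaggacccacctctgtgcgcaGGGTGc
Uros, chr7:133702501-133702750, minus strand: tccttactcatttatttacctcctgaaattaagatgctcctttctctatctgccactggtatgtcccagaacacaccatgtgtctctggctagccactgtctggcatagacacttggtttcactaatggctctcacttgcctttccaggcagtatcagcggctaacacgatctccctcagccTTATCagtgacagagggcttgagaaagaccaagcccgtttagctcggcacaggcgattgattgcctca
Alas1, chr9:106247955-106248204, minus strand: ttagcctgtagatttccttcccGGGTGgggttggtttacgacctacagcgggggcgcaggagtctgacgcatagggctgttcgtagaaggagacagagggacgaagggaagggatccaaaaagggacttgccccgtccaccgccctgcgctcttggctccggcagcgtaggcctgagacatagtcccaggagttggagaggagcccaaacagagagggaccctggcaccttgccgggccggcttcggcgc
In the Alas2 window the GATAA match began 86 bases before the start, and 3 CACCC matches followed each other without overlap from 40 bases to 26 bases before it. The Cpox window had its GATAA match at the same distance, and 4 CACCC matches spread along the window. The Uros window shown had a GATAA match beginning 68 bases before the start and no CACCC match. Another Uros window, chr7:133709296-133709545, is not shown and held neither motif. The Alas1 window shown had 1 CACCC match and no GATAA match, as did another Alas1 window that is not shown. A match describes the letters only, and no binding was measured here.

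Which enzymes of the pathway differed between the genotypes, and by how much, was asked of each member in turn. Of the 8 members, 7 were called higher and 0 lower by limma, against 15.2% of all genes tested called higher. No member was lower at an unadjusted p under 0.05, and edgeR and DESeq2 also called 0 lower. In all 8, both KLHL3-KI values lay above both WT values, as they did for 32.8% of all genes tested. The list's median log2 fold change was 1.87, with a range of 0.27 to 2.57. Together the 8 members held 0.215% and 0.239% of all scaled counts in KLHL3-KI libraries, against 0.111% and 0.0970% in WT libraries. In bulk RNA, more cells of a type and more RNA per cell cannot be told apart.

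**Figure D1:**
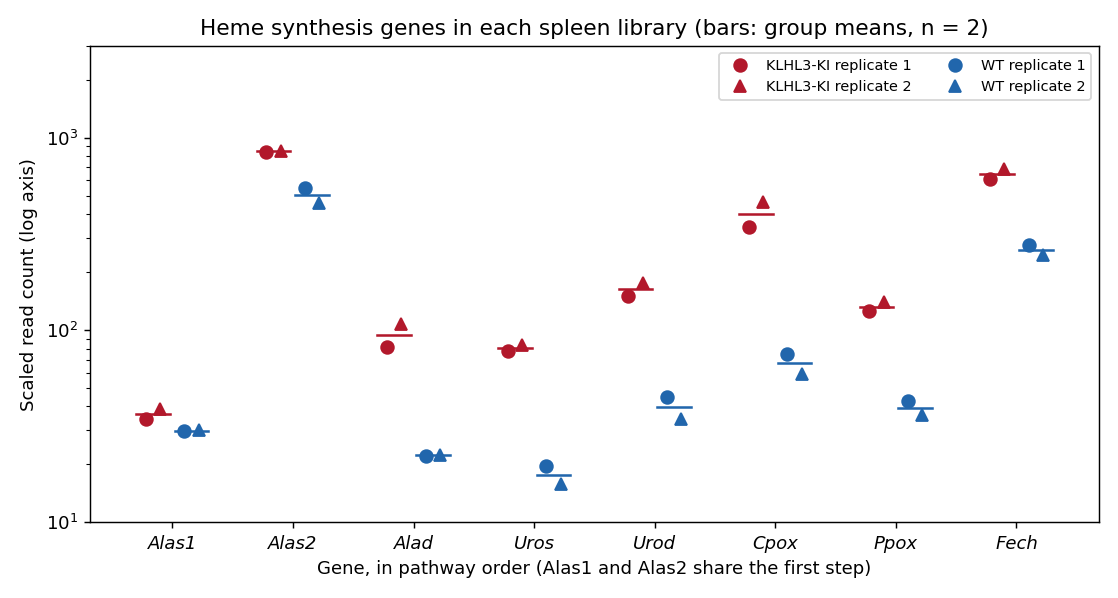
Scaled read counts (log axis) of the 8 heme synthesis genes in pathway order, with 1 point per library, KLHL3-KI in red and WT in blue, and bars for the mean of the 2 libraries. KLHL3-KI points lie above WT points for every gene, closest for Alas1 (34.25 and 38.66 against 29.98 and 30.00) and widest apart for Cpox (344.5 and 461.2 against 74.96 and 58.95).

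Of the isozymes of the first step, Alas2 passed the test and Alas1 did not. Alas2 (ENSMUSG00000025270) averaged 849 ± 7.94 in KLHL3-KI and 503 ± 61.9 in WT (SD, n = 2 each), resting on 7661 and 8779 reads in KLHL3-KI and on 4884 and 4421 in WT. Its log2 fold change was 0.76 (SE 0.11, limma adjusted p = 0.000881), the smallest among the 7 members called. The KLHL3-KI libraries were close to each other, and the groups did not overlap. Of all genes tested, 8.52% had a larger log2 fold change than Alas2.

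Alas1 (ENSMUSG00000032786) averaged 36.5 ± 3.12 in KLHL3-KI and 29.99 ± 0.00939 in WT (SD, n = 2 each), from 311 and 397 reads in KLHL3-KI and 268 and 289 in WT. Its log2 fold change was 0.27 (SE 0.12, limma adjusted p = 0.126), and 24.5% of all genes tested had a larger one. The difference between the KLHL3-KI libraries (34.25 and 38.66) was about as large as the gap from the lower of them to WT. The ratio of Alas2 to Alas1 was 23.96 and 21.6 in KLHL3-KI libraries, against 17.7 and 14.8 in WT libraries. The log2 ratio was thus higher in KLHL3-KI by 0.49 (SE 0.16, the SEs of both genes combined). This difference ranged from 0.36 to 0.62 when 1 library was left out. Combined SEs, here and below, treat the errors of the 2 genes as independent, though both genes were read in the same libraries. They therefore do not measure the spread of the ratio between libraries. With 2 libraries against 2, an exact permutation test cannot go below p = 0.33, so no p is given for ratios.

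The cytosolic steps rose, with log2 fold changes of 2.02 to 2.13, and that of Alas2 was below that of Alad by a difference of -1.26 (combined SE 0.17). ALAD condenses 5-aminolevulinate into porphobilinogen, and Alad (ENSMUSG00000028393) was at 81.39 and 106.9 in KLHL3-KI libraries, against 22.15 and 22.42 in WT libraries. UROS closes the tetrapyrrole ring to uroporphyrinogen III, and Uros (ENSMUSG00000030979) was at 77.53 and 83.65 in KLHL3-KI libraries, against 19.58 and 15.78 in WT libraries. UROD removes carboxyl groups to give coproporphyrinogen III, and Urod (ENSMUSG00000028684) was at 149.4 and 176.1 in KLHL3-KI libraries, against 44.64 and 34.56 in WT libraries. In none of these genes did the groups come near each other, since the lower KLHL3-KI value was over 3 times the higher WT value. The log2 fold changes were 2.02 for Alad (SE 0.14, limma adjusted p = 7.35e-06), 2.13 for Uros (SE 0.13, limma adjusted p = 3.68e-06) and 2.02 for Urod (SE 0.14, limma adjusted p = 7.40e-06).

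The Alad and Urod log2 fold changes differed by -0.0006 (combined SE 0.19), those of Alad and Uros by -0.12 (combined SE 0.19), and those of Uros and Urod by 0.12 (combined SE 0.19). The ratio of Urod to Alad was 1.83 and 1.64 in KLHL3-KI libraries, against 1.97 and 1.52 in WT libraries, so the groups overlapped. The ratio of Uros to Alad overlapped as well, at 0.953 and 0.784 in KLHL3-KI libraries and 0.889 and 0.716 in WT libraries. These were the 2 pairs of members, of 28, whose ratios overlapped between the groups. The pairs share genes, and the same share over pairs of all genes was not counted. The number therefore does not set the members apart. A gap can also be small, as for the ratio of Uros to Urod, at 0.522 and 0.478 in KLHL3-KI libraries, against 0.451 and 0.472 in WT libraries.

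Cpox had the largest log2 fold change of the members, with Uros below it by a difference of -0.43 (combined SE 0.20). CPOX oxidises coproporphyrinogen III to protoporphyrinogen IX in the mitochondrial intermembrane space. Cpox (ENSMUSG00000022742) averaged 403 ± 82.5 in KLHL3-KI and 66.96 ± 11.3 in WT (SD, n = 2 each), a mean 6.02 times as high in KLHL3-KI. Its log2 fold change was 2.57 (SE 0.15, limma adjusted p = 3.51e-06), and 0.389% of all genes tested had a larger one. It exceeded the log2 fold change of Alas2 by 1.80 (combined SE 0.19) and that of Ppox, the next enzyme, by 0.84 (combined SE 0.19). The ratio of Cpox to Alas2 was 0.409 and 0.540 in KLHL3-KI libraries, against 0.139 and 0.130 in WT libraries.

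The last steps rose, with smaller log2 fold changes than Cpox. PPOX oxidises protoporphyrinogen IX to protoporphyrin IX at the inner mitochondrial membrane, and Ppox (ENSMUSG00000062729) was at 125.5 and 139.1 in KLHL3-KI libraries, against 42.51 and 36.33 in WT libraries (log2 fold change 1.72, SE 0.11, limma adjusted p = 5.84e-06). FECH inserts ferrous iron into protoporphyrin IX and itself holds an iron-sulfur cluster. Fech (ENSMUSG00000024588) was at 609.6 and 686.1 in KLHL3-KI libraries, against 277.0 and 246.4 in WT libraries (log2 fold change 1.304, SE 0.10, limma adjusted p = 1.99e-05). For both genes the lower KLHL3-KI library stood at more than double the higher WT library. The log2 fold change of Fech exceeded that of Alas2 by 0.54 (combined SE 0.15) and fell short of that of Cpox, with Cpox higher by 1.26 (combined SE 0.18).

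**Figure D2:**
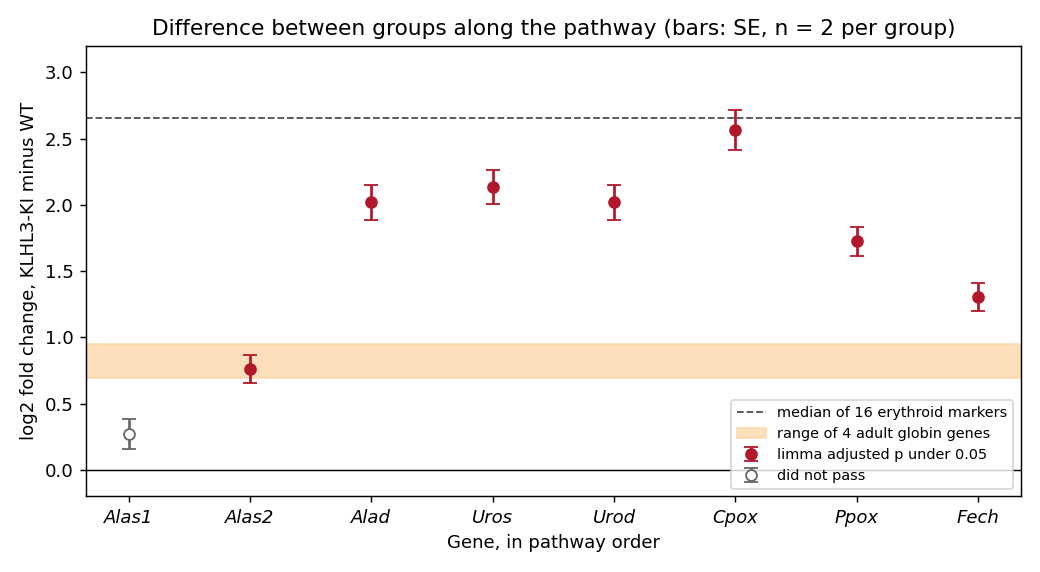
Log2 fold change of each member (KLHL3-KI minus WT, bars for SE, n = 2 per group) in pathway order, with the median of 16 erythroid markers (2.66, dashed) and the range of 4 adult globin genes (0.69 to 0.95, shaded). Alas1 did not pass, Alas2 lies within the globin range, Alad, Uros and Urod lie near 2, Cpox reaches 2.57, and Ppox and Fech lie lower.

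The unequal changes altered the make-up of the pathway's RNA. Alas2 gave 37.2% and 33.6% of the summed member values in KLHL3-KI libraries, against 51.7% and 50.8% in WT libraries. Cpox gave 15.2% and 18.1% in KLHL3-KI libraries, against 7.09% and 6.53% in WT libraries. Alas1 gave 1.51% and 1.52% in KLHL3-KI libraries, against 2.84% and 3.32% in WT libraries. The share of Fech overlapped between the groups, at 26.90% and 26.94% in KLHL3-KI libraries and 26.2% and 27.3% in WT libraries. Shares depend on transcript length and sum to the whole, so a lower share of Alas2 stands beside a higher Alas2 level.

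Levels can be set between genes only per length, and transcripts of the members differ in length. Per 1000 bases, with the longest or the shortest protein-coding GENCODE M21 transcript, Alas2 had the highest level of the 8 in every library, at 414 to 452 in KLHL3-KI and 225 to 289 in WT. The level of Fech per 1000 bases was 92.8 to 391 in KLHL3-KI and 37.5 to 158 in WT, a wide range since its transcripts run from 1753 to 6571 bases. Alas1 had the lowest level per 1000 bases in KLHL3-KI, at 10.1 to 18.2, where each of the other members was at 44.0 or more. In WT the order of Alas1 (8.82 to 14.1) and Uros (8.95 to 18.7) per 1000 bases was not settled, since the ranges overlapped. Cpox was at 111 and 149 per 1000 bases in KLHL3-KI libraries, against 24.2 and 19.0 in WT libraries, and Ppox at 68.95 and 76.4 in KLHL3-KI libraries, against 23.4 and 19.95 in WT libraries.

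Erythroid markers moved with the members. All 16 markers of red cell precursors were called higher, against 15.2% of all genes tested, with a median log2 fold change of 2.66. Their summed value was 7895 and 9171 in KLHL3-KI libraries, against 1618 and 1251 in WT libraries. Klf1, an erythroid transcription factor, was at 153 and 190 in KLHL3-KI libraries, against 20.47 and 17.02 in WT libraries. Rhd, a red cell surface protein, was at 233 and 253 in KLHL3-KI libraries, against 35.9 and 27.5 in WT libraries, and Sptb, a red cell membrane skeleton protein, at 567 and 746, against 105 and 96.5. The part of these markers in the rise of the members was not tested.

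Per 1000 of the summed erythroid marker values, 7 members had both KLHL3-KI values below both WT values and Cpox overlapped. The mean of that sum was 5.95 times as high in KLHL3-KI, so a gene that rose less lies lower on this scale. How many of all genes do so was not counted, so the 7 do not set the members apart. Alas2 was at 107 and 93.2 per 1000 in KLHL3-KI libraries, against 338 and 367 in WT libraries, a mean 0.284 times that of WT. Fech was at 77.2 and 74.8 per 1000 in KLHL3-KI libraries, against 171 and 197 in WT libraries, a mean 0.413 times that of WT. Alad, Uros, Urod and Ppox stood between, at 0.695, 0.767, 0.691 and 0.562 times WT, and Alas1 was at 0.201 times WT. Cpox was at 43.6 and 50.3 per 1000 in KLHL3-KI libraries, against 46.3 and 47.1 in WT libraries, so the WT values lay between the KLHL3-KI values. The sign of its log2 difference turned with the library left out, from -0.10 without KLHL3-KI replicate 2 to 0.11 without KLHL3-KI replicate 1.

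The adult globins, which carry the heme in red cells, gave another scale, on which the order of the members' differences is the same. The summed value of Hba-a1, Hba-a2, Hbb-bs and Hbb-bt was 48040 and 47640 in KLHL3-KI libraries, against 28890 and 25410 in WT libraries, a mean 1.76 times as high. Their log2 fold changes were 0.69 to 0.95, near the 0.76 of Alas2, though reads of such near-identical copies may be split between them. Per 1000 of the globin sum, Alas2 was at 17.6 and 17.95 in KLHL3-KI libraries, against 18.9 and 18.1 in WT libraries, a mean 0.960 times that of WT. Fech was at 12.7 and 14.4 per 1000 in KLHL3-KI libraries, against 9.59 and 9.70 in WT libraries, and Cpox at 7.17 and 9.68, against 2.60 and 2.32. The members therefore lay below WT relative to erythroid markers, Cpox excepted, and above WT relative to globins, Alas1 and Alas2 excepted. A gene that rose more than the globin sum lies higher on the globin scale. The share of all genes that do so was not counted, so this does not set the members apart.

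**Figure D3:**
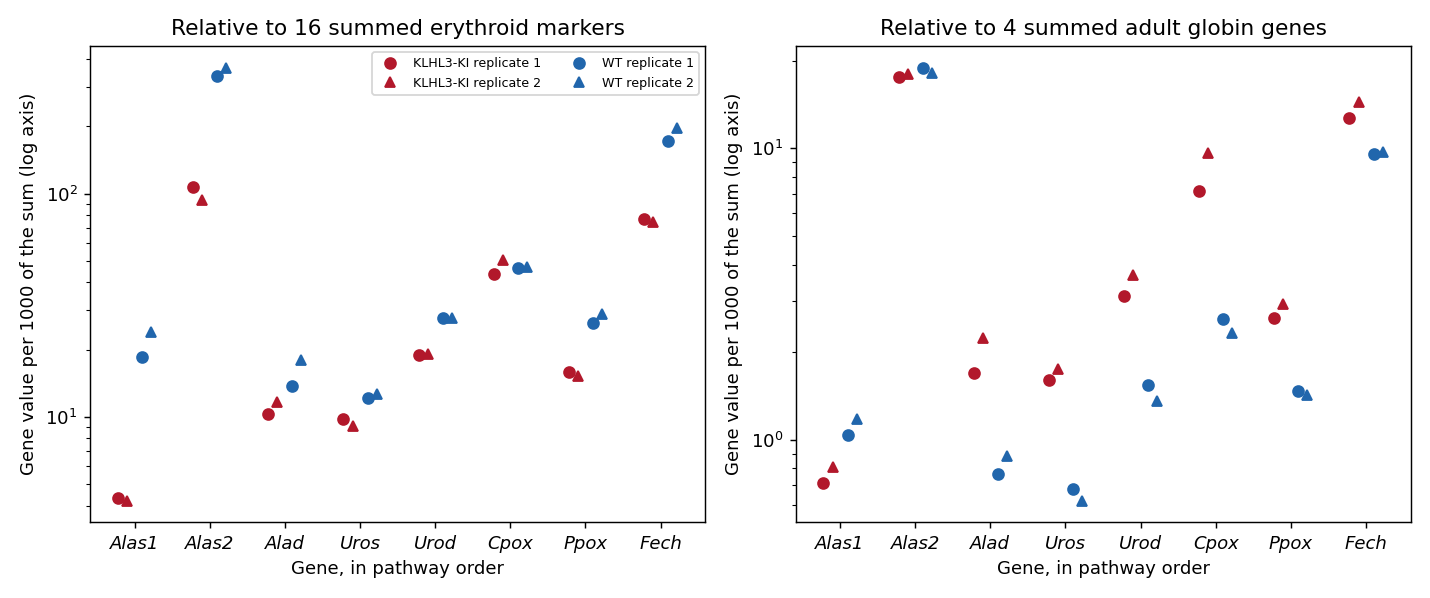
Level of each member per 1000 of the summed erythroid marker values (left) and per 1000 of the summed adult globin values (right), both on log axes, with 1 point per library, KLHL3-KI in red and WT in blue. On the left Alas2 is at 107 and 93.2 in KLHL3-KI against 338 and 367 in WT, and Cpox overlaps, while on the right Alas2 is at 17.6 and 17.95 against 18.9 and 18.1.

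The genes whose pattern over the 4 libraries was nearest to Alas2 were Svbp, Tmx1, Gtf2e2, Nbn and Cdc42ep4. Nearness was the Euclidean distance of log2(value + 1) centred on each gene's mean, and it ran from 0.0333 for Svbp to 0.0409 for Cdc42ep4. Svbp was at 16.6 and 16.5 in KLHL3-KI libraries, against 10.2 and 8.30 in WT libraries. Nearest to Alas1 were Pdpk1, Zscan21, Timm29, Bphl and Jpt1, at distances of 0.0124 to 0.0239. Pdpk1 was at 147 and 165 in KLHL3-KI libraries, against 128.2 and 127.6 in WT libraries. Between Alas1 and Alas2 the same distance was 0.532.

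Genes that supply the first step were split. Of 10 tested genes for substrate and cofactor supply, limma called 5 higher and 0 lower, against 15.2% and 7.56% of all genes tested. The list's median log2 fold change was 0.38. Slc25a38, the mitochondrial carrier that brings in glycine for heme synthesis, was at 57.4 and 68.2 in KLHL3-KI libraries, against 24.7 and 18.6 in WT libraries (log2 fold change 1.502, SE 0.15, limma adjusted p = 9.55e-05). Dlst, a subunit of the 2-oxoglutarate dehydrogenase that makes succinyl-CoA, differed by 0.56 on the log2 scale (SE 0.10, limma adjusted p = 0.00291). Without WT replicate 2 the count called higher was 3.

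Of 13 tested regulators and heme sensors, 2 were called higher and 1 lower by limma, with a median log2 fold change of 0.15. These counts are near the shares of all genes tested, 15.2% called higher and 7.56% called lower, and set the list apart in neither direction. Eif2ak1, the heme-regulated kinase that stops translation when heme is short, was at 196 and 220 in KLHL3-KI libraries, against 84.8 and 74.4 in WT libraries (log2 fold change 1.38, SE 0.11, limma adjusted p = 1.62e-05). Nr1d1, a heme-binding nuclear receptor, was at 9.91 and 8.28 in KLHL3-KI libraries, against 15.3 and 20.9 in WT libraries (log2 fold change -0.91, SE 0.18, limma adjusted p = 0.00611). Nrf1, a transcription factor for nuclear genes of mitochondria, differed by 0.40 on the log2 scale (SE 0.10, limma adjusted p = 0.0174). The count called higher was 1 without KLHL3-KI replicate 2, WT replicate 1 or WT replicate 2, and the count called lower was 0 without WT replicate 2.

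Transporters of heme, porphyrins and mitochondrial iron mostly rose, with 10 of 15 tested genes called higher and 1 lower by limma. The shares of all genes tested were 15.2% and 7.56%, and the list's median log2 fold change was 0.57. After quantile normalization, 8 of the 15 were called higher. Abcb10, an ATP-binding cassette protein of the inner mitochondrial membrane needed for heme synthesis, was at 262 and 294 in KLHL3-KI libraries, against 55.8 and 47.2 in WT libraries (log2 fold change 2.41, SE 0.11, limma adjusted p = 2.17e-06). Abcg2, a plasma membrane exporter of porphyrins, differed by 1.85 on the log2 scale (SE 0.11, limma adjusted p = 3.52e-06). Slc25a37, the mitochondrial iron importer mitoferrin-1 of red cell precursors, was at 1299 and 1466 in KLHL3-KI libraries, against 480 and 448 in WT libraries (log2 fold change 1.57, SE 0.10, limma adjusted p = 6.26e-06). The gene called lower was Slc25a28, the mitoferrin of other tissues, named after its value was seen, at 26.7 and 26.2 in KLHL3-KI libraries, against 32.9 and 36.0 in WT libraries (SE 0.11 for a log2 fold change of -0.37, limma adjusted p = 0.0461). The call was lost when any of the 4 libraries was left out.

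Of 16 tested iron-sulfur cluster genes, limma called 9 higher and 0 lower, against 15.2% and 7.56% of all genes tested. The list's median log2 fold change was 0.51. Glrx5, a cluster carrier that red cell precursors need for heme synthesis, was at 98.5 and 121 in KLHL3-KI libraries, against 33.0 and 29.8 in WT libraries (log2 fold change 1.77, SE 0.12, limma adjusted p = 8.68e-06). Iba57 and Isca1, which act late in cluster assembly, had log2 fold changes of 1.36 (SE 0.13) and 0.97 (SE 0.10), and their limma adjusted p was 6.73e-05 and 8.59e-05. In the supply, iron-sulfur, breakdown and mitochondrial content lists, 0 genes were lower at an unadjusted p under 0.05 or by edgeR or DESeq2.

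Heme breakdown had 2 of 4 genes called higher and 0 lower by limma, against 15.2% and 7.56% of all genes tested. Blvrb, a flavin and biliverdin reductase abundant in red cells, was at 263 and 285 in KLHL3-KI libraries, against 83.6 and 73.4 in WT libraries (log2 fold change 1.79, SE 0.10, limma adjusted p = 2.79e-06). Blvra, another biliverdin reductase, differed by 0.40 on the log2 scale (SE 0.12, limma adjusted p = 0.0417) and lost its call when any of the 4 libraries was left out, and under each of the 3 other scalings named above. Hmox1, the inducible heme oxygenase of macrophages, was at 427 and 470 in KLHL3-KI libraries, against 405 and 367 in WT libraries, a difference of 0.22 on the log2 scale that did not pass (SE 0.10, limma adjusted p = 0.151).

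Of 14 tested genes of general mitochondrial content, limma called 10 higher and 0 lower, against 15.2% and 7.56% of all genes tested. The list's median log2 fold change was 0.36. Hspd1, a chaperone of the matrix, differed by 0.84 on the log2 scale (SE 0.13, limma adjusted p = 0.00153). Vdac1, a channel of the outer membrane, differed by 0.76 (SE 0.11, limma adjusted p = 0.000969), and Atp5b, an ATP synthase subunit, by 0.60 (SE 0.10, limma adjusted p = 0.00284). The count called higher was 3 without KLHL3-KI replicate 2, WT replicate 1 or WT replicate 2, and 3 or 4 under the other scalings named above.

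**Figure D4:**
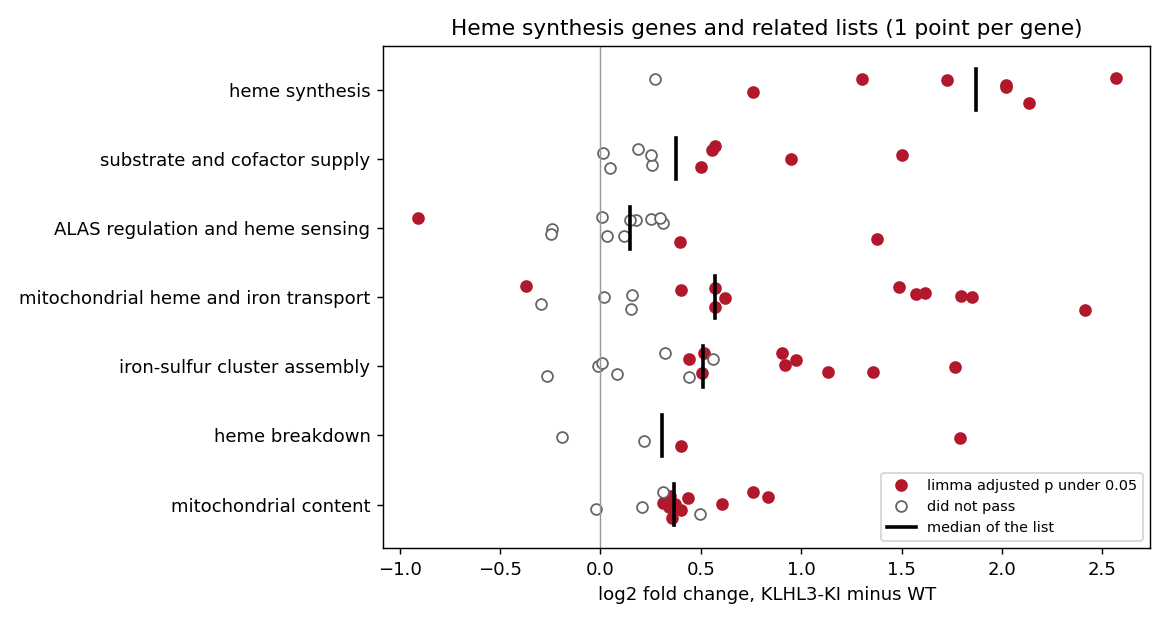
Log2 fold change (KLHL3-KI minus WT) of each gene of the heme synthesis list and of 6 related lists, with filled points for genes called by limma, open points for genes that did not pass and a bar for the list median. The medians are 1.87 for heme synthesis, 0.57 for transport, 0.51 for iron-sulfur clusters, 0.38 for supply, 0.36 for mitochondrial content, 0.31 for heme breakdown and 0.15 for regulation.

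Markers of other cells also moved between the genotypes. For comparison, limma called 15.2% of all genes tested higher and 7.56% lower. All 11 neutrophil and promyelocyte markers were called higher by limma, with a summed value of 1464 and 1987 in KLHL3-KI libraries, against 155 and 70.9 in WT libraries. All 6 proliferation genes were called higher, with sums of 3296 and 3977 in KLHL3-KI libraries, against 743 and 638 in WT libraries, and so were all 5 megakaryocyte markers, with sums of 296 and 374, against 128 and 120. All 8 T cell markers were called lower, with sums of 235 and 214 in KLHL3-KI libraries, against 428 and 386 in WT libraries. All 7 B cell markers were called lower, with sums of 1868 and 1422 in KLHL3-KI libraries, against 2583 and 2700 in WT libraries. Of 9 tested red pulp macrophage markers, Vcam1 and Cd163 were called higher and 0 lower, with sums of 2839 and 3040 in KLHL3-KI libraries, against 2487 and 2297 in WT libraries. Without WT replicate 1 the calls numbered 5 for T cells and 1 for macrophages, and without WT replicate 2 they numbered 2 for B cells and 0 for macrophages. None of these tested markers was at 0 in a library, and their part in the differences of the heme genes was not tested.

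Some exons of 4 members lie opposite exons of other genes in GENCODE M21, and the strand setting of the authors' counting is not stated in the sources used here. Alas2 shared 311 exon bases with Apex2, which was at 29.3 and 31.5 in KLHL3-KI libraries, against 18.4 and 18.8 in WT libraries. Ppox shared 791 bases with B4galt3, at 28.3 and 32.0 in KLHL3-KI libraries, against 22.7 and 25.2 in WT libraries. Cpox shared 204 bases with Gpr15, which stayed under 2 in every library, and Alas1 shared 465 bases with a gene that stayed under 0.2. Reads from overlapping exons could not be assigned apart if strand was ignored.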

How the data were processed

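Per the submitters' processing notes, the reads were handled with Trimmomatic 0.38, Bowtie2, RSEM 1.3.0 and edgeR on genome build GRCm39. The sources used here do not state the roles of these tools, the annotation or the strand setting. The deposited values are a normalized signal per gene that the authors call normalized counts. In all 4 columns, 100% of the values were whole multiples, within 0.001, of the value of 1 read, so whole reads were recovered. The depths given above and the 2 libraries per group limit the precision. Gene names came from GENCODE M21 (99.34% of identifiers matched), a GRCm38 annotation, so the only coordinates given are those of RefSeq windows on GRCm38.p6. Members and lists were chosen with earlier results of these data known, and 1 further enzyme of the pathway and 1 gene of the supply list are not reported by name here.

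Genes whose 4 values averaged 1 or more were compared as log2(value + 1), which understates the change of low genes, in limma 3.58.1 with a variance trend (R 4.3.3, two-sided, Benjamini-Hochberg adjusted p under 0.05). The method was also run on simulated counts with far fewer changed genes than were called here, and no result rests on that run. The text names all members, up to 3 genes with the lowest p in each list, and the 5 genes nearest to Alas2 and to Alas1. Globin-relative levels, levels per length and differences between members were added after the data were seen. Alternatives were pseudocounts of 0.1 and 5, other filters and scalings, no trend, a replicate block, leaving out each library, and edgeR 4.0.16 and DESeq2 1.42.0 on the recovered reads. RefSeq promoter sequences were searched in Python 3.11.15.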

Additional observations from a re-analysis of the deposited data

How the results depend on the processing

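The 7 called members stayed called and Alas1 stayed uncalled in all 16 alternatives, with log2 fold changes of 0.11 to 0.36 for Alas1 (limma, edgeR or DESeq2 adjusted p 0.085 to 0.497), 0.57 to 0.89 for Alas2 and 2.36 to 2.78 for Cpox. Equal total reads, quantile normalization and removal of abundant genes moved the median of all log2 fold changes to -0.16, -0.10 and -0.14. Under these the genes called lower numbered 3130, 2372 and 2968, the regulators called higher numbered 1 each, the iron-sulfur genes called lower 1 each, the breakdown genes called higher 1 each, and the mitochondrial content genes called higher 3, 4 and 4. Without a variance trend, 2462 genes were called, 659 of them lower, and the counts called higher were 3 for supply, 1 for regulators, 1 for breakdown and 3 for mitochondrial content. Transporters called higher numbered 8 without a variance trend and 8 after quantile normalization, and iron-sulfur genes called higher numbered 6 and 7. On the recovered reads, edgeR called 2533 genes higher and 1355 lower, and DESeq2 2023 higher and 793 lower. DESeq2 called 6 mitochondrial content genes higher and 1 breakdown gene higher. The transporter called lower (count 0) was lost with no filter, median-ratio factors, no trend, the replicate block and DESeq2, and the breakdown count was also 1 with no filter.

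Leaving out 1 library gave 1653 to 4530 genes called, with 1386 to 2903 higher and 267 to 1627 lower, and the fewest came without WT replicate 2 (1653) and WT replicate 1 (2186). The counts called higher ran from 3 to 5 for supply, 1 to 2 for regulators, 1 to 1 for breakdown and 3 to 12 for mitochondrial content, and those called lower from 0 to 1 for regulators and 0 to 0 for transporters. Relative to erythroid markers, the log2 differences ran from -1.92 to -1.72 for Alas2 and from -0.10 to 0.11 for Cpox, an alternative added after seeing the data. The cause of these shifts was not tested. Libraries with the same replicate number in their titles showed no shared deviation (correlation of deviations -0.03 across 16970 genes). This cannot tell whether the libraries were paired by design, which the labels do not state. With the replicate numbers as a replicate block, 4130 genes were called and 7 members stayed higher, while the breakdown count was 1.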
